A study of Bos taurus with 42 samples.

Results

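Hind limb muscle of bovine fetuses at day 50 of gestation was compared between fetuses of control dams (CON) and of nutrient restricted dams (RES). All 14 muscle libraries of the series were taken, of 42 libraries in all, 7 CON (fetuses 2, 23, 46, 54, 68, 69 and 73) and 7 RES (fetuses 1, 6, 25, 33, 52, 55 and 70), each from 1 fetus. The remaining libraries are cerebrum and liver of the same fetuses. Dams were heifers bred by artificial insemination to a common sire. From breeding on, CON dams were fed 100% of the requirement for moderate gain, and RES dams received 60% of the feed delivered to CON dams. Of the CON fetuses 6 were male and 1 was female, against 5 males and 2 females among RES fetuses, and sex was a term in every fit unless stated. Fetus 68 was the only CON female. With it left out and the sex term kept, the diet difference was estimated from male fetuses alone. The labels give no sequencing lane, dissection record or RNA integrity for single libraries, and no fetal weight.

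Limb muscle forms from progenitors that migrate out of the somites, switch on the factors MYF5 and MYOD1, and leave the cell cycle as MYOG appears. The cells then fuse into myotubes that fill with embryonic and fetal forms of myosin, actin, troponin and desmin. Connective tissue cells of the limb build the collagen and proteoglycan sheaths, the tendons and the sites of attachment, and nerves grow in from the spinal cord and the sensory ganglia. In whole tissue, fewer cells of a type and less RNA per cell of that type cannot be told apart.

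Depth and library measures overlapped between the diets. Counts assigned to genes ranged from 5,493,853 to 7,592,149 per CON library (median 6,209,523) and from 5,384,018 to 7,443,161 per RES library (median 6,733,789), a difference of means with an exact two-sided permutation p of 0.505. Genes with at least 1 count numbered 17,573 ± 237 in CON and 17,627 ± 169 in RES (mean ± SD, exact permutation p = 0.633). The 10 most counted genes took 6.75% ± 0.578 of CON counts and 6.46% ± 0.698 of RES counts (exact permutation p = 0.420). Genes encoded by the mitochondrial genome took 2.96% ± 0.268 and 2.81% ± 0.614 (exact permutation p = 0.580). The highest mitochondrial share was 4.03%, in RES fetus 1. With 7 against 7 libraries the smallest p that these permutations can give is 0.000583.

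The libraries carried the markers of skeletal muscle. On counts per 1,000,000 of the effective library size (CPM), with scaling over all 42 libraries, *MYOG*, which drives the step from myoblast to myotube, averaged 129 ± 83.4 CPM in muscle, 0.514 in cerebrum and 0.0450 in liver (SD over 14 libraries). *MYH3*, the embryonic myosin heavy chain, averaged 2288 ± 1210 CPM in muscle, 8.32 in cerebrum and 9.19 in liver. *DES*, the intermediate filament desmin, averaged 447 ± 245, 3.72 and 6.57 CPM. The hind limb factors *PITX1* and *TBX4* averaged 103 and 49.9 CPM in muscle and stayed under 1 CPM in the means of both other tissues. The forelimb factor *TBX5* averaged 11.1 ± 6.22 CPM in muscle, 0.0744 in cerebrum and 0.0301 in liver. *NEUROD6*, of forebrain neurons, averaged 0.193 CPM in muscle and 133 in cerebrum, and *ALB* averaged 5.04 CPM in muscle and 24,439 in liver.

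The 3 markers had similar medians in the diet groups and a wider range in RES. All later CPM values were scaled over the 14 muscle libraries. *MYOG* ranged from 73.7 to 203 CPM in CON (median 158) and from 39.9 to 378 CPM in RES (median 168). *MYH3* ranged from 1383 to 3282 CPM in CON (median 2809) and from 954 to 6520 CPM in RES (median 3088). *DES* ranged from 312 to 712 CPM in CON (median 474) and from 208 to 1230 CPM in RES (median 507). For each marker, RES fetuses 1 and 6 lay above every CON fetus and RES fetuses 25 and 70 below every CON fetus. The fitted log2 differences, RES minus CON, were 0.57 ± 0.44 for *MYOG* (± standard error, adjusted p = 0.658 in edgeR), 0.39 ± 0.36 for *MYH3* (adjusted p = 0.706) and 0.46 ± 0.35 for *DES* (adjusted p = 0.652).

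**Figure D1:**
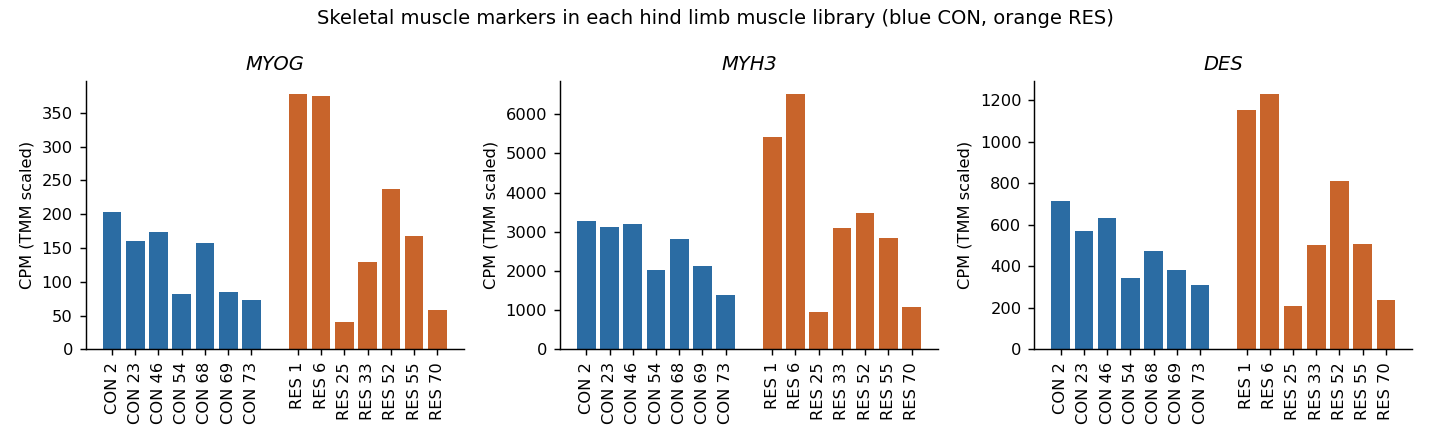
Bars give the level of 3 skeletal muscle markers (y axis, CPM on a linear scale from 0) in each of the 14 muscle libraries (x axis), CON in blue and RES in orange. RES fetuses 1 and 6 stand above all CON fetuses and RES fetuses 25 and 70 below them, while the middle of both groups lies at similar levels.

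Some libraries stood apart by the other tissue they carried, which has to be known before the diets are set side by side. The 23 neuron markers with a gene in the file summed to 8695 CPM in CON fetus 73 and to 2011 CPM in RES fetus 1, against 198 to 248 CPM in the other CON and 198 to 320 CPM in the other RES libraries. *PRPH*, the filament of peripheral neurons, reached 1093 CPM in CON fetus 73 and 276 CPM in RES fetus 1. The central nervous system markers, 9 with a gene in the file, summed to 206 CPM in CON fetus 73 and to 58.1 CPM in RES fetus 1, against a CON median of 27.3 and a RES median of 32.8 CPM. Most of that sum was *NCAN*, a brain proteoglycan, with 1299 of its 2028 muscle counts in CON fetus 73. That library also held 30 of 53 counts of *HES5*, 15 of 18 of *NEUROD2* and 15 of 24 of *NEUROD6*, but 1 of 28 of *TBR1*, 2 of 5 of *PAX6* and 0 of 12 of *EOMES*. A count of 0 in that library allows up to 0.450 CPM (3 counts, counting error only). The diet comparison was therefore run with and without CON fetus 73, and for several lists also without RES fetus 1.

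The libraries also split by genes of the distal limb bud. *MSX1*, *MSX2* and *HOXD13*, which mark the distal and marginal mesenchyme of the limb, were singled out after their values were seen. Their summed level was 86.4, 104 and 142 CPM in CON fetuses 54, 68 and 69, and 242, 154, 118 and 161 CPM in RES fetuses 25, 33, 55 and 70. It was at or under 5.82 CPM in the other 7 libraries, so 3 of 7 CON and 4 of 7 RES libraries were on the high side. *TFAP2B*, of limb ectoderm and mesenchyme and also named after its values were seen, split the libraries the same way. It was at 14.9 CPM or more in those 7 libraries and 4.07 CPM or less in the rest. The 9 epidermis markers, mostly keratins, summed to 98.9 to 128 CPM in the 3 CON libraries and 123 to 484 CPM in the 4 RES libraries with high distal genes, against 25.5 to 59.0 CPM in all others. Hepatocyte markers were low in every library, with the highest sums 115 CPM in CON fetus 54 and 200 CPM in RES fetus 70.

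Thin filament genes, which encode the actins, tropomyosins and troponins of the contractile apparatus, spread across the libraries as the muscle markers did. Their 13 members summed to 3236 to 7449 CPM in CON (median 5082) and to 2273 to 13,649 CPM in RES (median 4931). The highest sums were 12,694 and 13,649 CPM in RES fetuses 1 and 6, and the lowest were 2273 and 2619 CPM in RES fetuses 25 and 70. The RES libraries thus held both the highest and the lowest sums of the 14.

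**Figure D2:**
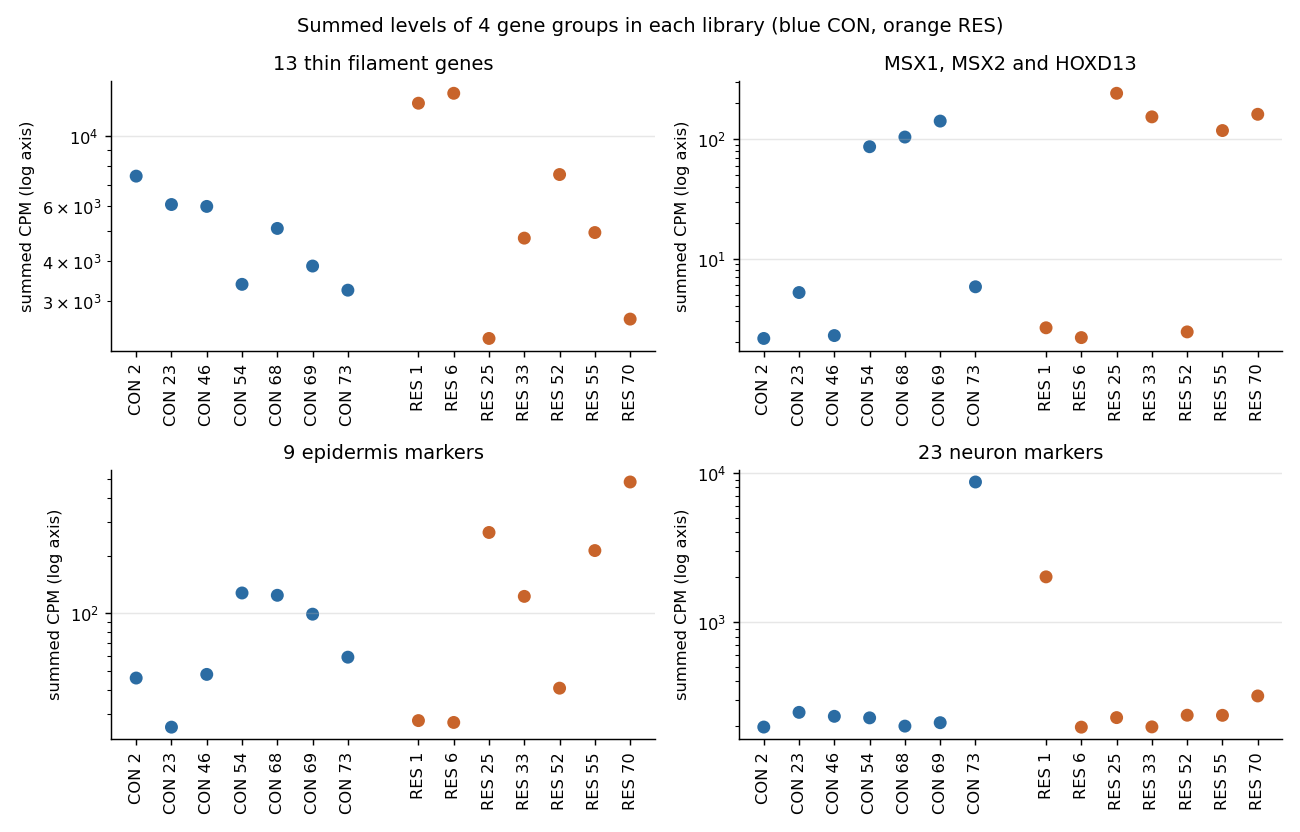
Points give the summed level (y axis, CPM on a log axis) of 13 thin filament genes, 3 distal limb genes, 9 epidermis markers and 23 neuron markers in each library (x axis), CON in blue and RES in orange. The distal limb genes split both diets into a low and a high set, and the neuron markers set CON fetus 73 and, at a lower level, RES fetus 1 apart from the other 12 libraries.

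The comparison of the diets asks which genes of fetal muscle differ when the dam is restricted from breeding on. After removal of genes under 1 CPM in 80% or more of the 14 libraries, 14,947 of 22,664 genes were tested. No gene passed an adjusted p of 0.05 in edgeR's quasi-likelihood test (0% called, lowest adjusted p = 0.457). At an unadjusted p under 0.05, 747 genes were higher in RES (5.00% of those tested) and 734 were lower (4.91%), 1481 in all. DESeq2's Wald test gave 14 genes past an adjusted p of 0.05 (5 higher and 9 lower, 0.247% of the 5657 genes to which it gave an adjusted p). Below, a gene is said to pass, or to be past the threshold, at an unadjusted p under 0.05 in edgeR, and adjusted p-values are those of edgeR unless DESeq2 is named.

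Leaving out CON fetus 73 moved the counts little and changed part of which genes passed. Without it, 759 genes were higher in RES (5.11% of 14,851 tested) and 663 lower (4.46%), and the lowest adjusted p in edgeR was 0.446. Of the 747 higher genes 558 (74.7%) passed again, and of the 734 lower genes 532 (72.5%). DESeq2 then gave 16 genes (6 higher and 10 lower, 0.246% of 6498). The expression values of the groups did not overlap for 6 genes higher in RES (0.0401% of those tested) and for 9 genes lower in RES (0.0602%).

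Genes of the connective tissue matrix had mostly lower estimates in RES fetuses. Of 32 listed matrix genes 16 could be matched to a symbol and all 16 were tested. Of these, 15 had a lower estimate in RES, 7 of them at an unadjusted p under 0.05, and 1 (*FREM1*) was higher at that threshold. The median log2 difference over the list was -0.24, against -0.01 over all genes tested, where 4.91% were lower at the same threshold. Of the 16, 6 are on a list of muscle genes that an earlier report called on these same fetuses and the study used. All 6 passed, so their direction is not independent evidence. The other 10 were all lower in estimate, with *COL8A1* and *SPARC* past the threshold. They too were listed with earlier results of these data known, and matched through symbols that the study's own analyses selected. They are therefore not independent evidence either.

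*LTBP2*, which binds elastic microfibrils and is related to the proteins that store latent TGF-beta, had the clearest separation. It ranged from 70.7 to 96.0 CPM in CON (median 78.6) and from 37.7 to 67.6 CPM in RES (median 55.3). The groups did not overlap. The lowest RES values were those of fetuses 1 and 6, and CON fetus 73 was the lowest of its group. The log2 difference was -0.62 ± 0.13 (adjusted p = 0.457 in edgeR and 0.00716 in DESeq2), and -0.64 without CON fetus 73.

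*SSC5D*, a secreted scavenger receptor protein, ranged from 37.6 to 63.8 CPM in CON (median 55.6) and from 23.1 to 41.7 CPM in RES (median 31.0). The groups overlapped only through CON fetus 2, the lowest of its group, which lay below RES fetuses 52 and 55. Its log2 difference was -0.70 ± 0.14 (adjusted p = 0.457 in edgeR and 0.00716 in DESeq2). *ADAMTSL4*, a microfibril-associated protein, ranged from 49.7 to 88.7 CPM in CON (median 76.0) and from 34.7 to 69.5 CPM in RES (median 48.7). CON fetus 73 had the low CON value, and the other 6 CON fetuses lay at 75.2 CPM or more, above every RES fetus. The log2 difference of *ADAMTSL4* was -0.70 ± 0.15 (adjusted p = 0.457 in edgeR and 0.00758 in DESeq2) and -0.77 without CON fetus 73 (adjusted p = 0.000390 in DESeq2).

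The further members past the threshold are named because they passed it. *THBS2*, a matricellular protein that limits vessel growth and shapes collagen fibrils, ranged from 388 to 580 CPM in CON (median 507) and from 259 to 504 CPM in RES (median 339), with a log2 difference of -0.42 ± 0.14 (adjusted p = 0.470). RES fetuses 25, 33 and 55 overlapped the lower CON values. *COL8A1*, a short-chain collagen, differed by -0.40 ± 0.15 (adjusted p = 0.470). *SPARC*, a collagen-binding glycoprotein and the most counted gene of the list, had medians of 4872 CPM in CON and 4345 CPM in RES (log2 difference -0.18 ± 0.08, adjusted p = 0.502). *FREM1*, of the basement membrane beneath epithelia, differed the other way, by 0.53 ± 0.24 (adjusted p = 0.502), and by 0.43 without CON fetus 73, no longer past the threshold (adjusted p = 0.556).

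Tendon markers went with the matrix list. Among 5 measured members 4 had lower estimates in RES and 3 passed the threshold, against 4.91% of all genes, with a list median of -0.35. *FMOD*, fibromodulin, which regulates collagen fibril assembly, ranged from 381 to 557 CPM in CON (median 439) and from 269 to 441 CPM in RES (median 350), and differed by -0.35 ± 0.11 (adjusted p = 0.459). *TNMD*, tenomodulin, a membrane protein of tendon cells, differed by -0.37 ± 0.17 (adjusted p = 0.502). *KERA*, keratocan, which is also in the matrix list, differed by -0.48 ± 0.22 (adjusted p = 0.502). *SCX*, the transcription factor of tendon progenitors, had medians of 14.1 CPM in CON and 15.6 CPM in RES (log2 difference 0.10 ± 0.12, adjusted p = 0.779).

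**Figure D3:**
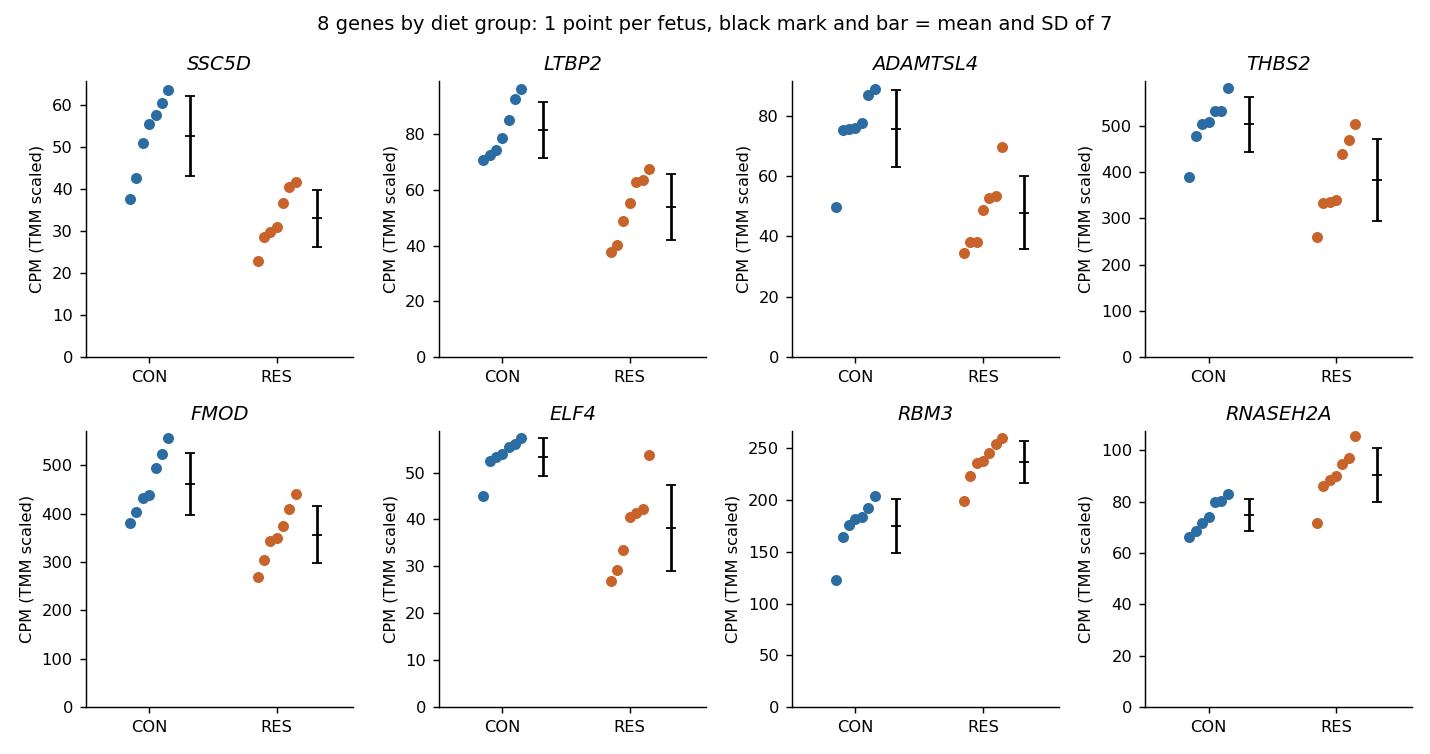
Each point is 1 fetus, ordered by value within its diet (CON blue, RES orange), with the level on the y axis (CPM on a linear scale from 0), and the black mark and bar give the mean and SD of 7 fetuses. *LTBP2* shows no overlap, *ADAMTSL4* overlaps only through the lowest CON value of 49.7 CPM, and *RBM3* and *RNASEH2A* are the genes of the panel with higher RES means.

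The matrix difference was followed through the sources of variation above. Without CON fetus 73, 10 of the 16 matrix genes were lower at the threshold (background 4.46%) and the list median was -0.28. With RES fetus 1 also left out, 6 were lower (background 3.34%), 1 was higher and the median was -0.22. With the thin filament level as a covariate, 7 were lower (background 5.51%) and the median was -0.23, and with the distal limb gene level as a covariate, 10 were lower (background 6.89%) and the median was -0.28. Over all fits that left out 1 library, between 5 and 10 members were lower at the threshold, where 3.26% to 6.24% of all genes were. Without CON fetus 2, 23 or 46, or without RES fetus 1 or 70, it was 5 (background 3.43% to 4.98%), and in those fits the list median was between -0.25 and -0.18. For tendon, 3 members passed without CON fetus 73 (background 4.46%), 4 with the distal covariate (6.89%), and 1 among male fetuses alone (5.41%). Tendon counts dropped to 1 without CON fetus 23 or 68, or without RES fetus 1, 6, 52 or 70 (background 3.26% to 5.76%).

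Further genes with the lowest p on the low side had varied roles. *ELF4*, an ETS transcription factor, ranged from 45.1 to 57.4 CPM in CON (median 53.9) and from 26.9 to 53.7 CPM in RES (median 40.5), with a log2 difference of -0.55 ± 0.11 (adjusted p = 0.457 in edgeR and 0.00716 in DESeq2). All RES fetuses other than RES fetus 55 lay below every CON fetus. *CPNE1*, a calcium-dependent membrane-binding copine, had medians of 97.3 CPM in CON and 75.4 CPM in RES (-0.30 ± 0.07, adjusted p = 0.457). Its adjusted p in DESeq2 was 0.0215, and 0.0724 without CON fetus 73. *TEK*, the angiopoietin receptor of endothelium, had medians of 67.9 and 53.9 CPM (-0.35 ± 0.09, adjusted p = 0.457) and was the sole one of 4 endothelial markers past the threshold (4.91% of all genes were lower, list median -0.14). *ZNF185*, *PKD1*, *VPS37A* and *TNFRSF11B* completed the 10 named genes on this side, with differences between -0.55 and -0.31 (each with an adjusted p = 0.457).

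*EBF1*, a factor of stromal and adipocyte progenitors, and *HSPA1A*, an inducible heat shock chaperone, had larger differences with a wider spread. *EBF1* ranged from 39.0 to 88.2 CPM in CON (median 53.4) and from 19.4 to 48.1 CPM in RES (median 32.0), a log2 difference of -0.74 ± 0.22 (adjusted p = 0.457), or -0.60 without CON fetus 73. *HSPA1A* ranged from 38.1 to 178 CPM in CON (median 99.7) and from 39.9 to 69.9 CPM in RES (median 56.7), a log2 difference of -0.92 ± 0.27 (adjusted p = 0.457), or -0.75 without CON fetus 73. For *HSPA1A*, CON fetus 23 lay below all RES fetuses and the other 6 CON fetuses above them. *CPEB4*, which binds polyadenylation elements of mRNA, also showed no overlap, at 17.3 to 39.0 CPM in CON and 11.5 to 16.8 CPM in RES. Its difference was -0.54 ± 0.18 (adjusted p = 0.470) with CON fetus 73, which had the 39.0 CPM, and -0.35 without it.

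Among genes with a symbol, *RBM3*, a cold-inducible RNA-binding protein, had the lowest p on the high side. It ranged from 122 to 204 CPM in CON (median 181) and from 199 to 260 CPM in RES (median 238). Only RES fetus 55 was below the highest CON value, that of fetus 23. The log2 difference was 0.45 ± 0.10 (adjusted p = 0.457 in edgeR and 0.00716 in DESeq2), and 0.44 without CON fetus 73 (adjusted p = 0.0258 in DESeq2). Of the 9 measured heat and cold shock genes only *RBM3* and *HSPA1A* passed, in opposite directions (5.00% of all genes were higher and 4.91% lower). The list median was -0.10, and 0.03 without CON fetus 73. *RBM3*, *HSPA1A* and *EBF1* are on the list from the earlier report on these fetuses, so their direction is not independent evidence.

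*RNASEH2A*, the catalytic subunit of ribonuclease H2, which removes ribonucleotides from DNA, ranged from 66.3 to 82.9 CPM in CON (median 74.0) and from 71.5 to 106 CPM in RES (median 89.8). All RES fetuses other than RES fetus 55 lay above every CON fetus. Its log2 difference was 0.30 ± 0.07 (adjusted p = 0.457), and its adjusted p in DESeq2 was 0.0417, or 0.0505 without CON fetus 73. The 8 further named genes, *PCIF1*, *AAMP*, *CTNNBL1*, *FAM207A*, *PXMP2*, *GRHPR*, *NELFCD* and *DNPEP*, differed by 0.26 to 0.47 (each with an adjusted p = 0.457). Among them *PCIF1* methylates the mRNA cap, *CTNNBL1* belongs to a spliceosome-associated complex and *NELFCD* to the complex that pauses RNA polymerase II. The groups did not overlap for *PURA* (at most 7.41 CPM in CON and at least 7.46 in RES), *RAB43* (16.7 to 20.6 and 21.1 to 24.0 CPM) and the splicing regulator *HNRNPM* (366 to 450 and 453 to 566 CPM).

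Of 10 cell cycle genes 9 were higher in RES by estimate and 2 passed, against 5.00% of all genes, with a list median of 0.13 that was 0.09 without CON fetus 73. The summed level of the list was lowest in CON fetus 73, at 904 CPM. *MCM3*, a subunit of the replicative helicase, ranged from 100.5 to 154 CPM in CON (median 138) and from 144 to 180 CPM in RES (median 160), a difference of 0.29 ± 0.10 (adjusted p = 0.470). *PCNA*, the sliding clamp, differed by 0.17 ± 0.07 (adjusted p = 0.482), and by 0.15 without CON fetus 73, no longer past the threshold (adjusted p = 0.519), while *MCM2*, another helicase subunit, then passed, so the count stayed at 2. With 1 library left out the count ran from 1 (without RES fetus 6 or 25) to 3 (without CON fetus 46 or 69, or RES fetus 1). In such fits 2.89% to 6.38% of all genes were higher at the threshold. With limma voom 1 passed (background 3.14%) and the median was 0.08. *TOP2A*, the most counted of the list, had medians of 384 and 399 CPM (0.01 ± 0.11, adjusted p = 0.986). Among 11 nuclear respiratory genes 9 were higher in estimate and 3 passed, against 5.00% of all genes, with a list median of 0.14. These were *UQCRC1* of complex III (0.28 ± 0.10, adjusted p = 0.470), *SDHC* of complex II (0.36 ± 0.13, adjusted p = 0.470) and *NDUFV1* of complex I (0.33 ± 0.12, adjusted p = 0.470). The list median was 0.076 without RES fetus 1, 0.080 without RES fetus 6 and 0.033 with limma voom, and 1 member passed (background 3.19%) without CON fetus 73 and RES fetus 1. The summed level of these genes had a median of 1079.5 CPM in CON and 1051.6 CPM in RES, with RES fetuses 1 and 6 highest, at 1371 and 1516 CPM. Of the 12 mitochondrially encoded subunits 10 were lower in estimate and *ND4L* passed (-0.39 ± 0.17, adjusted p = 0.490), against 4.91% of all genes, with a median of -0.06 that was 0.02 among male fetuses alone. When CON fetus 73 was left out none passed and 8 were lower, and with RES fetus 1 also left out 3 passed (background 3.34%) with a median of -0.19. Their summed level was highest in RES fetus 1, at 42,230 CPM.

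Genes of the muscle fibre had higher estimates in RES, almost none of which passed the threshold. Over all genes tested, 48.11% were higher in estimate and 5.00% passed on the high side. All 13 measured myosin chains and their binding proteins were higher in estimate, with a list median of 0.46 and none past an unadjusted p of 0.05. Of 13 thin filament genes 12 were higher, with a median of 0.56 and 1 past the threshold. Of Z-disc, titin and costamere genes 21 of 22 were higher with none past it (median 0.43), of excitation-contraction coupling genes 10 of 12 with none (median 0.34), and of endplate genes 10 of 10 with none (median 0.31). Muscle energy genes were higher in 12 of 13 with none past it (median 0.23). On the list from the earlier report on these fetuses are 9 of the 13 thin filament genes and 5 of the 13 myosin genes. The 1 thin filament gene that passed is among these 9, so its direction is not independent evidence.

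Single genes show the spread behind these medians. *TPM1*, alpha-tropomyosin, ranged from 710 to 908 CPM in CON (median 815) and from 720 to 1230 CPM in RES (median 896), and was the member that passed (0.27 ± 0.11, adjusted p = 0.480). *TNNC2*, the calcium sensor of fast fibres, ranged from 133 to 476 CPM in CON (median 259) and from 85.0 to 1030 CPM in RES (median 276), with a difference of 0.77 ± 0.50 (adjusted p = 0.607). *ACTC1*, the cardiac actin that embryonic muscle also uses, had medians of 2110 CPM in CON and 2158 CPM in RES (0.38 ± 0.42, adjusted p = 0.751). RES fetuses 1 and 6 had the highest values of both. *CHRNG*, the fetal acetylcholine receptor subunit, had medians of 371 and 418 CPM (0.48 ± 0.52, adjusted p = 0.744).

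The size of the fibre differences depended on single libraries and on the test. The thin filament median was 0.28 without RES fetus 6 and 0.36 without RES fetus 1, but 0.74 without RES fetus 70 and 0.72 without RES fetus 25. It was 0.89 among male fetuses alone. It was also 0.89 without CON fetus 68, which with the sex term is in effect the same comparison of males. The myosin median was 0.22 without RES fetus 6 and 0.28 without RES fetus 1. It was 0.74 without CON fetus 68, again in effect a comparison of males. Without CON fetus 73 the medians were 0.36 for myosin and 0.45 for thin filament genes, and with RES fetus 1 also left out they were 0.18 and 0.27. With limma voom and library quality weights both turned, to -0.040 for myosin and -0.048 for thin filament genes. With the thin filament level as a covariate the myosin median was -0.09, but that covariate moves with the myosin genes across libraries, so the value says nothing about the diet difference in fibre genes. The spread among RES fetuses was larger than among CON fetuses for most genes. The ratio of the RES to the CON standard deviation of log2 CPM had a median of 1.22 over all genes, and was above 1 for 9627 of 14,947. For thin filament genes the median ratio was 2.08 (above 1 for 13 of 13), for Z-disc genes 2.35 (22 of 22), and for matrix genes 1.25 (13 of 16). Lists outside the fibre had ratios of similar size, at 2.11 for mitochondrially encoded subunits (12 of 12), 1.92 for epidermis markers (9 of 9) and 1.92 for cartilage markers (6 of 6). For the regulators, hubs and partners named by the study the ratio was 1.96 (12 of 14). Without CON fetus 73 the median ratio was 1.42 over all genes, and above 1 for 11,119 of them. It was then 2.16 for thin filament genes, 2.47 for Z-disc genes and 1.82 for matrix genes (14 of 16). For mitochondrially encoded subunits it was 2.19, for epidermis markers 1.85 and for the study's regulators, hubs and partners 2.33. These ratios are described without a test.

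**Figure D4:**
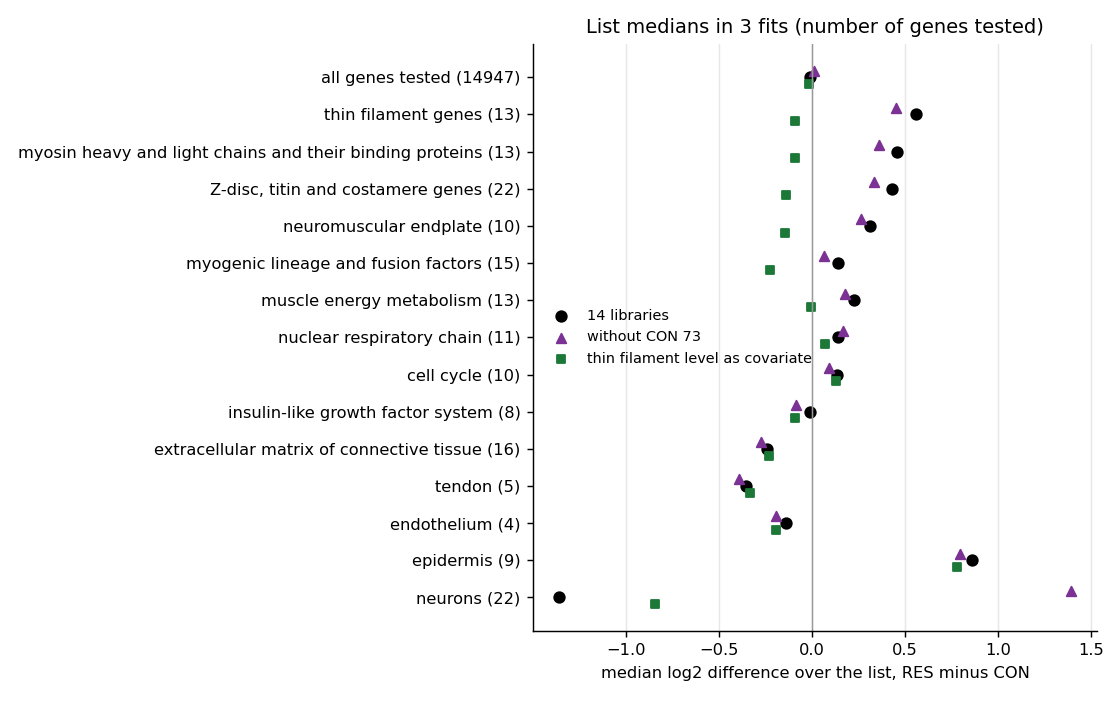
The x axis gives the median log2 difference, RES minus CON, over the measured genes of each list (y axis, number of genes tested in brackets) with all 14 libraries (black circles), without CON fetus 73 (purple triangles) and with the thin filament level as a covariate (green squares). Fibre gene lists sit between 0.23 and 0.56 and move to or below 0 with the covariate, which is itself made of fibre genes, matrix and tendon lists stay below 0 in all 3 fits, and the neuron list goes from -1.36 to 1.39.

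No myogenic factor passed with all libraries. Of 15 measured members 11 were higher in estimate and the median was 0.14, or -0.018 without RES fetus 6 and 0.39 without CON fetus 68. *MYOD1* ranged from 24.0 to 52.9 CPM in CON (median 32.2) and from 11.8 to 90.5 CPM in RES (median 49.9), a difference of 0.52 ± 0.38 (adjusted p = 0.643). *MYF5* had medians of 29.1 and 32.1 CPM (0.14 ± 0.37, adjusted p = 0.908), and *PAX7*, of muscle progenitors, 4.97 and 6.55 CPM (0.09 ± 0.45, adjusted p = 0.955). *MEOX1*, a somite factor, had the lowest p of the list, at -0.24 ± 0.12 (adjusted p = 0.512), and -0.29 without CON fetus 73, then past the threshold (adjusted p = 0.505). *CDKN1A*, the inhibitor that accompanies cell cycle exit in myoblasts, ranged from 60.6 to 157 CPM in CON and from 29.2 to 304 CPM in RES (0.49 ± 0.44, adjusted p = 0.697). Its difference was 0.22 without RES fetus 1 and 0.78 without CON fetus 68. None of the 8 cell cycle inhibitors passed (list median 0.12).

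Of growth factor and nutrient sensing genes few passed, where 5.00% of all genes were higher and 4.91% lower at the threshold. None of 8 insulin-like growth factor genes passed, and *IGF2*, the main fetal growth factor, ranged from 3796 to 7155 CPM in CON (median 5661) and from 2751 to 8016 CPM in RES (median 4904), with a difference of -0.02 ± 0.20 (adjusted p = 0.980). Of 12 genes of the PI3K, Akt and mTOR pathway 1 passed, *PIK3R1*, the regulatory subunit of PI3K (-0.26 ± 0.11, adjusted p = 0.482), and without CON fetus 73 none did. Of 8 AMPK and energy sensing genes 1 passed, *ACACA*, acetyl-CoA carboxylase (-0.28 ± 0.13, adjusted p = 0.502), and without CON fetus 73 none did. Of 11 one-carbon genes 1 passed, *MTRR*, methionine synthase reductase (-0.29 ± 0.12, adjusted p = 0.482). Of 6 glycolytic genes 1 passed, *PFKP*, a phosphofructokinase (-0.42 ± 0.16, adjusted p = 0.471). None passed among 10 genes of the amino acid response, 3 FoxO and proteolysis genes, 4 hypoxia genes, 5 immediate early genes, 5 imprinted growth genes or 5 hormone receptors. Medians of these lists ranged from -0.21 for the FoxO list to 0.01 for the amino acid list. The FoxO median was -0.45 without CON fetus 68 and -0.13 without CON fetus 73.

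Among signals that shape the limb, *LTBP2* was the sole one of 17 genes of the myostatin, activin, BMP and TGF-beta system to pass (4.91% of all genes were lower), with a list median of -0.02, and without CON fetus 73 there were 2 (background 4.46%). None of 17 Wnt, Notch, FGF and hedgehog genes passed (median 0.11), with *KREMEN2* (0.64 ± 0.31, adjusted p = 0.521) and *HES1* (0.30 ± 0.14, adjusted p = 0.521) nearest, and 1 passed on the high side without CON fetus 73 (background 5.11%). None of 21 limb position genes passed (median -0.03). *PITX1* had medians of 131 CPM in CON and 118 CPM in RES (-0.20 ± 0.26, adjusted p = 0.796).

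Marker lists of other cells describe what the dissected tissue held. All 9 epidermis markers were higher in RES by estimate with none past the threshold and a median of 0.86, which was 0.40 with the distal limb gene level as a covariate. Without RES fetus 25 the median was 0.19 and 7 of 9 were higher, and without the sex term it was 1.48, with 3 past the threshold (background 3.35%). With the thin filament level as a covariate it was 0.78 and 6 of 9 passed (background 5.04%). *KRT5*, keratin of the basal epidermis, ranged from 4.46 to 20.2 CPM in CON and from 4.84 to 75.2 CPM in RES (0.86 ± 0.53, adjusted p = 0.594). Of these 9, 7 are on the muscle list that the study took from the earlier report. Smooth muscle and pericyte markers were higher in 7 of 8 (median 0.29, none passed), erythroid markers in 4 of 4 (median 0.28, none), and bone markers in 3 of 3 (median 0.11, none). With 1 library left out, the erythroid median ran from 0.067 (without RES fetus 33) to 0.38 (without CON fetus 46). The bone median ran from 0.025 (without CON fetus 46) to 0.23 (without RES fetus 1). Cartilage markers were lower in 5 of 6 (median -0.14, none passed), mesenchyme and fibroblast markers in 3 of 6 (median -0.10, none; without CON fetus 73, 6 of 6, median -0.18, 2 passed against a background of 4.46%) and macrophage markers in 3 of 5 (median -0.0028, none). The cartilage median ran from -0.30 without RES fetus 25 to -0.021 without RES fetus 1. Hepatocyte markers had a median of 0.02 with none passed, but -0.40 without RES fetus 70 and 0.91 without CON fetus 54. The adipogenic list rested on *EBF1* and *ZNF423* alone. Among 6 Schwann cell markers *SCN7A* (-1.59 ± 0.68, adjusted p = 0.492) and *PMP22* (-0.21 ± 0.09, adjusted p = 0.494) passed, against 4.91% of all genes, and *SCN7A* was at -0.44 (adjusted p = 0.651) without CON fetus 73. The part of these cells in the matrix and fibre differences was not tested beyond the covariates given.

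Neuronal genes changed direction with a single library. All 22 tested neuron markers had a lower estimate in RES with none past the threshold and a median of -1.36. Without CON fetus 73, 19 could be tested, 18 were higher and 11 passed, against 5.11% of all genes, with a median of 1.39. Without RES fetus 1 as well the median was 0.09 and none passed. *INA*, alpha-internexin, went from -1.65 to 2.99, *ISL2*, of motor and sensory neurons, from -1.24 to 3.31, and *CHGB*, of secretory granules, from -1.21 to 3.04. *CACNA2D2* went from -1.20 to 2.97 and *GRM4* from -1.61 to 2.34. The 3 tested sensory neuron markers had a median of -1.59, and the 2 that could be tested without CON fetus 73 had a median of 0.31. The 2 tested markers of the central nervous system had a median of -0.44, and of 0.64 without CON fetus 73.

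*CRMP1*, a protein of axon guidance, was called by DESeq2 only without CON fetus 73 (adjusted p = 0.0293 in DESeq2). Its level was 209 CPM in CON fetus 73, 23.4 to 31.8 CPM in the other CON fetuses and 31.7 to 72.4 CPM in RES, where fetus 1 had the 72.4 CPM. The log2 difference was -0.15 ± 0.51 with all libraries, 0.75 ± 0.18 without CON fetus 73, and 0.57 with RES fetus 1 also left out.

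**Figure D5:**
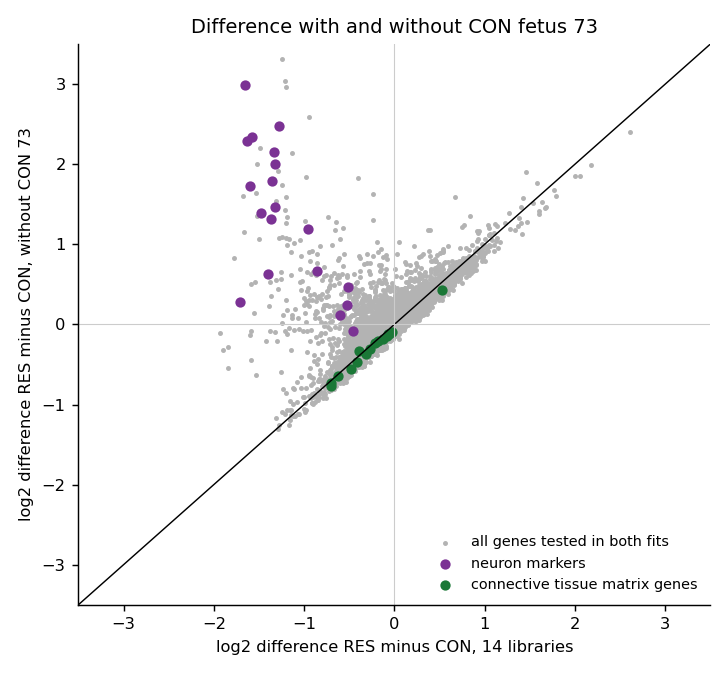
Each grey point is a gene, with its log2 difference RES minus CON over 14 libraries on the x axis and without CON fetus 73 on the y axis, and the diagonal marks equal values. Neuron markers (purple) move from negative to positive values, while connective tissue matrix genes (green) stay on or near the diagonal.

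The list of muscle genes that the study took from an earlier report on these fetuses was described in the same way. Of its 144 genes 137 were tested, of which 6 passed on the high side (5.00% of all genes) and 12 on the low side (4.91%), with a median of -0.52, which was -0.066 over the 118 genes left by a stricter filter on low counts. Without CON fetus 73 the median was 0.53, and 24 passed on the high side (5.11%) and 11 on the low side (4.46%). Because that list was chosen on these fetuses, its counts are not evidence about the diet. It holds 20 of the 22 tested neuron markers.

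Of 14 genes that the study names in muscle as regulators, network hubs or their partners, none passed with all libraries. *ELK3* passed without CON fetus 73. The study names these genes mainly for co-expression or connectivity that differed between the diets, which a comparison of levels does not test. *ZBTB33*, a methyl-CpG binding repressor, had medians of 37.2 CPM in CON and 41.1 CPM in RES (0.06 ± 0.10, adjusted p = 0.835), and *ZNF131* of 64.4 and 65.9 CPM (0.04 ± 0.10, adjusted p = 0.904). *REST*, the repressor of neuronal genes, had medians of 102 and 107 CPM (-0.13 ± 0.12, adjusted p = 0.721). *ELK3*, an ETS factor, was nearest to the threshold (-0.26 ± 0.13, adjusted p = 0.525), and at -0.31 without CON fetus 73 (adjusted p = 0.509). *IGSF10* had medians of 77.0 and 70.4 CPM (-0.06 ± 0.20, adjusted p = 0.931).

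Whether the diet difference in muscle departed from that in the other tissues was tested as the muscle difference minus the mean of the cerebrum and liver differences, over 42 libraries. None of 15,972 genes passed an adjusted p of 0.05 in edgeR, and 502 (3.14%) passed an unadjusted 0.05. *LTBP2* differed by -0.98 ± 0.30 (adjusted p = 1) and *ADAMTSL4* by -1.38 ± 0.42 (adjusted p = 1). Of the other genes named above for the lowest p in the diet comparison, *ELF4* (-0.87 ± 0.36, adjusted p = 1) and *AAMP* (0.54 ± 0.22, adjusted p = 1) also passed the unadjusted threshold, and *SSC5D* (-0.70 ± 0.35, adjusted p = 1) did not. All these genes were chosen for their muscle difference, which is part of this contrast, so passing it is not independent evidence. Levels of *LTBP2* in the other tissues were low, at means of 6.60 CPM in cerebrum and 1.43 CPM in liver against 52.1 CPM in muscle on the common scale. *RBM3* did not depart from the other tissues at the threshold (0.08 ± 0.18, adjusted p = 1). With the fetus as a block, 327 genes passed an unadjusted 0.05, and *LTBP2* was at -1.05 (adjusted p = 1).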

How the data were processed

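The deposited file holds raw counts per Ensembl gene, 22,664 genes by 42 libraries. The authors made these counts from strand-specific 50-bp paired reads with STAR 2.7.3a, after FastQC 0.11.8, per the labels. Which strand column was used is not given in the sources used here. Symbols came from the study's supplementary tables (5131 genes), a set selected by its own analyses, so 409 of 781 listed genes could be followed, in 45 lists. No sex-linked check gene had a symbol, so those genes were not analysed here. All columns were mapped to samples, and 0 were left out.

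Muscle counts were tested with edgeR 4.0.16 (R 4.3.3, TMM factors, quasi-likelihood F test, diet and fetal sex, Benjamini-Hochberg adjustment). Genes under 1 CPM in at least 80% of libraries were dropped. Standard errors are the log2 difference divided by the square root of F. DESeq2 1.42.0 and limma 3.58.1 were alternatives. Library measures were compared by exact permutation tests (NumPy 2.4.6). The fit was tested on simulated counts first. Members and lists were chosen with earlier results of these data known, and lists were described by counts and medians only. Named genes were the 10 with a symbol and the lowest p in each direction, DESeq2 calls and non-overlapping genes. Per list, the 2 lowest p and the most counted gene were added. So were the markers, the regulators, hubs and partners that the study names, and the genes that moved most without CON fetus 73. Others fall outside this rule, and the text does not mark each of them, such as *PAX7*, *PRPH* and *SCX*. A few genes the rule would name are not reported here. Replicate numbers are fetus numbers, shared by the 3 tissues, so pairing is by animal. Residuals of muscle correlated with those of cerebrum between -0.227 and 0.202 (6 of 14 pairs over 0.1) and with liver between -0.0966 and 0.246 (9 of 14).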

Additional observations from a re-analysis of the deposited data

Results flagged for a closer look

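In 220 checks of single libraries against the rest of their diet group, 31 values lay farther from the nearest other value than Dixon's limit for 7 samples allows, where chance gives about 1 in 20. Most were in CON fetus 73, and the neuronal genes among them were followed because they moved most without that library, so the total is no test against chance. Its summed levels stood apart for neuron markers (8695 CPM), sensory neuron markers (553 CPM), central nervous system markers (206 CPM, of which *NCAN* gave the most), FoxO and proteolysis genes (31.8 CPM), the myostatin, activin, BMP and TGF-beta system (1083 CPM), cell cycle genes (904 CPM) and limb mesenchyme and fibroblast markers (510 CPM). RES fetus 1 stood apart for neuron markers (2011 CPM) and sensory neuron markers (122 CPM).

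Single genes that stood apart in CON fetus 73 were *INA* (381 CPM), *CRMP1* (209 CPM), *CACNA2D2* (154.5 CPM), *GRM4* (63.5 CPM), *CHGB* (60.8 CPM), *ISL2* (56.8 CPM), *HACD3* (44.3 CPM), *CPEB4* (39.0 CPM) and *FOXO6* (5.38 CPM) on the high side. On the low side of that library were *ADAMTSL4* (49.7 CPM), *ELF4* (45.1 CPM), *ELK3* (34.3 CPM) and a gene without a symbol (130 CPM). In RES fetus 1, *CACNA2D2* (48.7 CPM) and *GRM4* (13.8 CPM) were far above the other RES fetuses.

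Elsewhere, the AMPK and energy sensing genes summed to 194 CPM in RES fetus 6, the amino acid response genes to 1005 CPM in CON fetus 2 and the hepatocyte markers to 115 CPM in CON fetus 54. *RBM3* was at 122 CPM in CON fetus 54, the lowest value of its group, and *TEK* was at 39.9 CPM in RES fetus 25, the lowest of its group. ENSBTAG00000001093 reached 105 CPM in RES fetus 6 and ENSBTAG00000038316 reached 111 CPM in CON fetus 68.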

How the results depend on the processing

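No alternative gave a gene past an adjusted p of 0.05 in edgeR or limma, and DESeq2 gave 14 such genes, or 16 without CON fetus 73. Genes higher at an unadjusted p under 0.05 numbered 470 with voom and 473 without CON fetus 73 and RES fetus 1. Leaving out 1 library gave 432 (without RES fetus 6) to 952 (without RES fetus 33) higher and 487 to 930 lower for the same libraries. Against the other tissues, the fit with the fetus as replicate block gave 327, and leaving out 1 fetus gave 388 (without RES fetus 33) to 904 (without RES fetus 70, and 805 without CON fetus 2). With or without the block no gene passed the adjusted threshold. Of 168 named genes 14 passed an unadjusted 0.05 without the block, where 502 of 15,972 genes (3.14%) did. With the block 8 of them passed, where 327 of 15,972 genes did. These 8 included *LTBP2*, *ADAMTSL4*, *ELF4* and *AAMP*, while *FMOD*, *ACTC1*, *IGF2* and *MEOX1* were among the 6 that did not. Some named genes were chosen for a low p in muscle, so these counts are not independent evidence. The difference in genes detected ranged from -4.17 to 122 when 1 library was left out.

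Leaving out 1 library changed the sign of 20 of 45 list medians, 7 of them with a median over 0.1 in size with all libraries. With voom 18 changed sign, all 6 fibre lists among them, and with the thin filament covariate 12. The Wnt, Notch, FGF and hedgehog median was -0.025 with voom, -0.072 with the thin filament covariate and -0.045 to 0.21 with 1 library left out. Leaving out 1 library gave -2.80 to 1.39 for neurons, -1.93 to 0.31 for sensory neurons, -0.95 to 0.64 for the central nervous system and -0.58 to 0.53 for the study's list, each low value without RES fetus 1 (CON fetus 2 for the study's list) and each high one without CON fetus 73. DESeq2 without CON fetus 73 gave 1.34, 0.30, 0.63 and 0.53. The central nervous system median was 0.27 with voom, and the study's list was at 0.41 with the neuron covariate and 0.24 without CON fetus 73 and RES fetus 1.

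Single genes turned as follows. With voom, *CRMP1* was at 0.50, *MYF5* at -0.26, *FOXO6* at 0.47, *INA* at 0.45, *ISL2* at 1.40, *CHGB* at 1.07, *CACNA2D2* at 0.31 and *GRM4* at 0.41. With the neuron covariate, *CRMP1* was at 0.38, *FOXO6* at 0.15, *INA* at 0.58, *ISL2* at 1.16, *CHGB* at 1.03, *CACNA2D2* at 0.62 and *GRM4* at 0.41. With the thin filament covariate, *CRMP1* was at 0.14, *CDKN1A* at -0.15, *MYF5* at -0.39 and *ISL2* at 0.62. Without CON fetus 73 and RES fetus 1, *CRMP1* was at 0.57, *FOXO6* at 0.48, *INA* at 0.57 and *CACNA2D2* at 0.16. Without CON fetus 73, *CRMP1* was at 0.75, *FOXO6* at 0.48, *INA* at 2.99, *ISL2* at 3.31, *CHGB* at 3.04, *CACNA2D2* at 2.97 and *GRM4* at 2.34, and DESeq2 on the same libraries gave 0.75, 0.49, 2.96, 3.403, 3.04, 2.79 and 2.33. With 1 library left out, the lowest values were -0.33 for *CRMP1* and -0.45 for *FOXO6* (without CON fetus 68), and -3.94 for *INA*, -3.65 for *ISL2*, -2.84 for *CHGB*, -3.85 for *CACNA2D2* and -3.45 for *GRM4* (without RES fetus 1). The covariates of thin filament and distal limb genes, the joint removal of both libraries and DESeq2 without CON fetus 73 were chosen after seeing the data. The cause of each change was not tested. A filter that kept all genes gave 832 higher and 795 lower of 21,074, and a stricter one 709 and 701 of 13,525. Depth limits genes near 1 CPM, which rest on few counts per library.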

Other observations

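Some genes of the muscle list that the study used, outside the lists above, passed an unadjusted p of 0.05 in edgeR. They are named because they passed it, so their direction is not independent evidence. *MOXD1*, a monooxygenase-related protein of the secretory pathway, ranged from 63.3 to 91.1 CPM in CON (median 82.9) and from 82.6 to 179 CPM in RES (median 103). Its log2 difference was 0.56 ± 0.15 (adjusted p = 0.457), and 0.55 without CON fetus 73. *CCN3*, a matricellular protein of the CCN family, ranged from 310 to 565 CPM in CON (median 387) and from 153 to 369 CPM in RES (median 281), a difference of -0.56 ± 0.18 (adjusted p = 0.457). *ADAM33*, a membrane metalloproteinase of mesenchymal cells, differed by -0.48 ± 0.16 (adjusted p = 0.470), and *CD47*, the cell surface receptor for thrombospondins, by -0.50 ± 0.16 (adjusted p = 0.470). *PRR5*, of the mTORC2 complex, differed by 0.58 ± 0.24 (adjusted p = 0.482) and *ABCA2*, a lipid transporter, by -0.53 ± 0.17 (adjusted p = 0.470).

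The lowest p of the comparison belonged to a gene without a symbol in the tables used, ENSBTAG00000014576. It ranged from 41.4 to 50.9 CPM in CON (median 45.1) and from 29.3 to 38.7 CPM in RES (median 31.2), without overlap. Its log2 difference was -0.44 ± 0.08 (adjusted p = 0.457 in edgeR and 0.00185 in DESeq2), and -0.46 without CON fetus 73. On the high side the lowest p belonged to ENSBTAG00000034366, also without a symbol and named after its values were seen. Its mean log2 CPM was 1.70 ± 0.68 in CON and 3.17 ± 0.33 in RES (SD over 7 libraries each), a log2 difference of 1.38 ± 0.26 (adjusted p = 0.457), or 1.33 without CON fetus 73.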
